A study of Homo sapiens with 6 samples.

Results

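The 10 genes described here are the epithelial-to-mesenchymal transition factors ZEB1, ZEB2, SNAI1, SNAI2, TWIST1 and TWIST2, the mesenchymal products VIM, FN1 and SPARC, and the epithelial adhesion molecule EPCAM. They were taken from the count table by gene symbol, 10 of its 36458 symbols. DMS114, an established cell line from a human small cell lung cancer, was exposed for 48 h to 2.5 mM β-alanine, a non-proteinogenic amino acid, or to an equal volume of vehicle, which served as control. Poly(A) RNA was sequenced from 3 libraries per group. The labels name neither the vehicle nor any genetic change in these cells, and they do not say whether a group's 3 libraries were grown as separate cultures. The p-values therefore reflect only how much these libraries varied, which may be technical. The series title places the comparison within work on invasion and metabolism of this cancer.

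In an epithelial-to-mesenchymal transition, zinc-finger repressors of the ZEB and Snail families and the basic helix-loop-helix TWIST proteins silence genes for cell junctions, the E-cadherin gene CDH1 among them, and intermediate filament and matrix genes come on. Vimentin, the product of VIM, is the filament protein of mesenchymal cells, fibronectin (FN1) is a matrix glycoprotein bound by integrins, and SPARC is a secreted protein that binds collagen. The microRNAs of the miR-200 family and the ZEB messages repress each other, and ZEB1 and ZEB2 are the best known targets of that family. Small cell lung cancer lines differ in how far they show neuroendocrine or mesenchymal traits.

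The sequences that tie ZEB1 and ZEB2 to the miR-200 family are shown as background. Their part in the unlike levels of these repressors in DMS114 was not tested. The family has a pair of seeds, and the mature strands encoded within the host gene MIR200CHG on chromosome 12 carry one each (RefSeq, GRCh38.p14; capitals mark the seed, bases 2 to 8):
hsa-miR-200c-3p: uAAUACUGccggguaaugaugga
hsa-miR-141-3p: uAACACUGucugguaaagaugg
The first seed is shared with miR-200b and miR-429 and the second with miR-200a. The ZEB1 3′ UTR on chromosome 10 (2549 bases, GENCODE 29) held 6 matches to the first seed, written CAGTATT, and 3 to the second, written CAGTGTT. The ZEB2 3′ UTR on chromosome 2 (5370 bases) held 5 and 4. At least 1 such match was found in 47.0% of 2589 UTRs of about the length of that of ZEB1 and in 73.1% of 1188 UTRs of about the length of that of ZEB2. Each of these sets includes the gene itself. At least 9 matches were found in 1 of the 2589, which is ZEB1, and in 2 of the 1188, of which 1 is ZEB2. An example of each is given on the transcript strand, with the match in capitals:
ZEB1, UTR bases 369 to 375: tatcttatCAGTATTatcactct
ZEB2, UTR bases 455 to 461: caatgcatCAGTATTatgattcc
ZEB2, UTR bases 208 to 214: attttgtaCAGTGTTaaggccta
These are matches of letters only. Mature microRNAs were not measured, and the host transcript MIR200CHG was counted 0, 0 and 1 times in β-alanine libraries and 0 times in each control library.

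The libraries held between 14433801 and 32909568 counts. Replicates differed by more than sampling noise (chi-square per gene of 1.88 to 4.47 within groups and 4.31 to 14.3 between them). β-alanine library 1 stood apart on the second principal component, at 20.0 against -7.04 to 2.06 for the other 5 libraries. The first component separated the groups, but there too β-alanine library 1 lay nearer to control libraries. It was at -6.95, against -20.2 for both other β-alanine libraries and 13.9 to 16.8 for control libraries. Its chi-square per gene against control libraries was 4.31 to 5.12, and that of the other β-alanine libraries was 10.9 to 14.3. For a given relative difference this measure rises with counts. β-alanine library 1 was the smallest library, at 14433801 counts against 27324339 and 32909568 for β-alanine libraries 2 and 3. The part of depth in this gap was not tested. Of 17331 genes that passed the filter on low counts, 2441 were higher and 2389 lower in β-alanine cells by edgeR's quasi-likelihood test (adjusted p under 0.05). These are 27.9% of the genes tested, and the median size of their change was 0.28 on the log2 scale. The CPM of the 2 groups did not overlap for 39.1% of the genes tested. Of 12 tested markers of small cell lung cancer states, 4 were higher and 2 lower in β-alanine cells. Of the neuroendocrine ones, SYP averaged 86.3 ± 4.26 CPM in β-alanine cells and 61.0 ± 4.23 CPM in control cells (SD, n = 3 each), and CHGA averaged 28.8 ± 2.41 and 19.6 ± 2.06 CPM. NCAM1 was lower, at 1.48 ± 0.107 and 2.32 ± 0.291 CPM (edgeR adjusted p = 0.0156), and did not pass with DESeq2 (0.0653) or without β-alanine library 2 (edgeR, 0.0601), β-alanine library 3 (0.0637) or control library 1 (0.0805). INSM1 and POU2F3 stayed under 1 CPM in every library. The exons of SYP and NCAM1 overlap those of another gene. No endothelial or leukocyte marker passed the filter. The summed endothelial markers reached 0.278 to 0.330 CPM in β-alanine libraries and 0.227 to 0.378 CPM in control libraries, and the summed leukocyte markers 0.474 to 0.835 and 0.561 to 0.865 CPM.

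The level of each member in control cells, as counts scaled to exon length and library size (RPKM, from merged exons), put the mesenchymal filament gene far above the factors that are known to induce it. VIM stood at 2384 ± 70.7 RPKM in β-alanine cells and 2746 ± 90.0 RPKM in control cells (SD, n = 3 each, here and in the rest of this paragraph). ZEB2 followed at 8.77 ± 0.227 and 8.95 ± 0.152 RPKM, SNAI1 at 2.65 ± 0.460 and 2.27 ± 0.108 RPKM, TWIST2 at 2.04 ± 0.154 and 2.03 ± 0.253 RPKM, and TWIST1 at 1.06 ± 0.185 and 1.15 ± 0.251 RPKM. The remaining members averaged below 1 RPKM in both groups. FN1 stood at 0.821 ± 0.154 and 0.602 ± 0.0539 RPKM, SPARC at 0.413 ± 0.0540 and 0.560 ± 0.0544 RPKM, EPCAM at 0.417 ± 0.00273 and 0.368 ± 0.0413 RPKM, ZEB1 at 0.325 ± 0.0323 and 0.309 ± 0.0531 RPKM, and SNAI2 at 0.0776 ± 0.0664 and 0.0290 ± 0.0128 RPKM. Across the control libraries the neighbours SNAI1 and TWIST2, FN1 and SPARC, and EPCAM and ZEB1 overlapped, so the order within these pairs was not resolved. With the length of the longest transcript in place of all exons, TWIST2 (2.71 RPKM) stood above SNAI1 (2.27 RPKM) in control cells. In β-alanine cells the means of EPCAM and SPARC stood in the other order than in control cells, and their libraries overlapped.

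**Figure D1:**
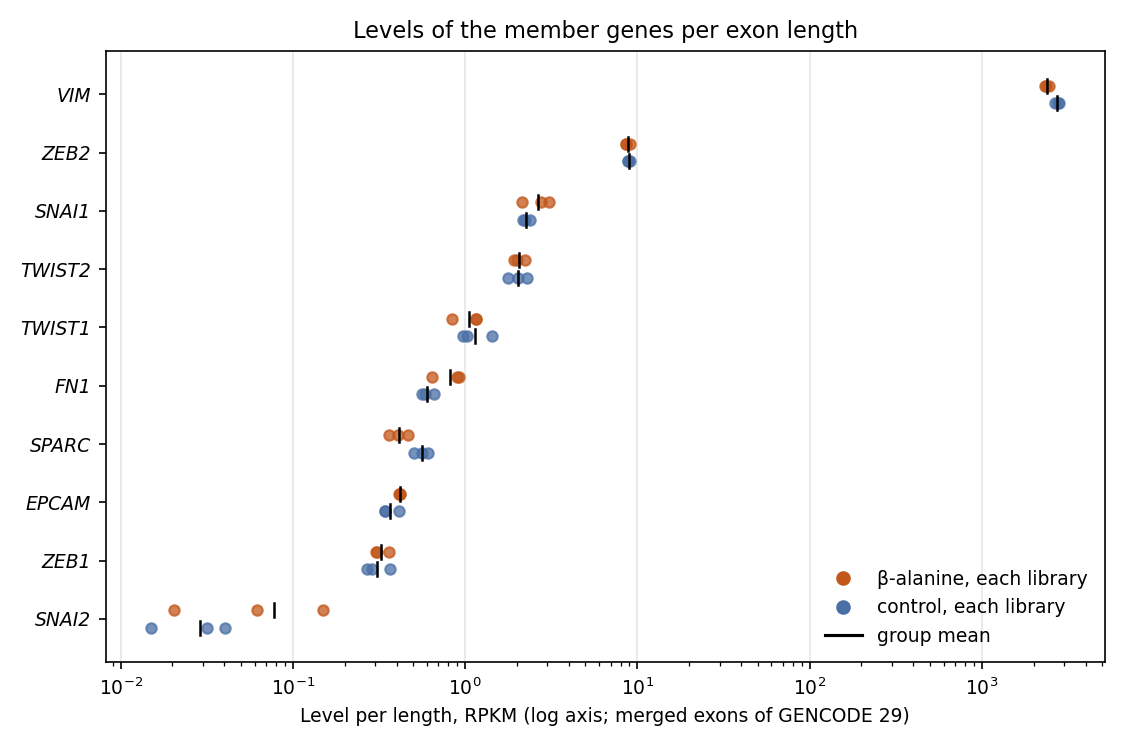
Level of each member in RPKM on a log axis, with β-alanine above control for each gene, a point for each of 3 libraries and a tick at the group mean. VIM lies at 2384 and 2746 RPKM, ZEB2 near 9 RPKM, and the means of SNAI2 below 0.1 RPKM in both groups.

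None of the 5 transition factors that could be tested passed the test in edgeR, where none had an unadjusted p under 0.05 either, and none was called with DESeq2 or limma. ZEB2 (chr2:144384081-144520119, minus strand of GRCh38.p14), the zinc-finger repressor with the highest level of the 6 factors, had 226, 217 and 216 CPM in β-alanine libraries and 229, 222 and 222 CPM in control libraries. The groups overlapped, and the log2 fold change was -0.03 ± 0.04 (SE; edgeR, adjusted p = 0.608), with an approximate 95% interval of -0.10 to 0.04. ZEB1 (chr10:31318417-31529804, plus strand), its paralog, had 3.13, 2.66 and 2.64 CPM in β-alanine libraries and 3.19, 2.32 and 2.50 CPM in control libraries. These also overlapped (log2 fold change 0.06 ± 0.18, adjusted p = 0.848 in edgeR), and the interval of -0.29 to 0.41 was wide at this depth. Per exon length, ZEB2 stood 24.9, 28.1 and 28.3 times above ZEB1 in the β-alanine libraries, against 24.7, 33.0 and 30.7 times in the control libraries, so the order of these paralogs was the same in all 6. The size of the ratio depends on the length used: with the longest transcript it was 47.3, 53.2 and 53.7 for β-alanine libraries, against 46.9, 62.6 and 58.1 for control libraries.

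SNAI1 (chr20:49982980-49988886, plus strand), a labile repressor of CDH1, had 3.62, 5.14 and 4.64 CPM in β-alanine libraries and 3.68, 3.78 and 4.03 CPM in control libraries. β-alanine library 1 lay below the control libraries and the other 2 above them. The log2 fold change was 0.26 ± 0.15 (SE), with an interval of -0.03 to 0.55 and an adjusted p of 0.210 in edgeR, so a rise was not resolved at this depth. SNAI2 (chr8:48917598-48921429, minus strand), the Snail family member also called Slug, had 1, 14 and 7 counts in β-alanine libraries and 2, 3 and 1 counts in control libraries. It did not pass the filter on low counts and had no test. Its pooled level was 0.293 CPM in β-alanine cells (exact 95% interval 0.183 to 0.443, from 22 counts) and 0.0998 CPM in control cells (0.0366 to 0.217, from 6 counts). This is a ratio of 2.93 with an exact interval of 1.15 to 8.84. Without β-alanine library 2 the ratio was 1.68 (0.511 to 5.87), and without control library 3 it was 2.37 (0.876 to 8.01). Such intervals cover counting error only and not the spread between libraries.

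TWIST1 (chr7:19113047-19117636, minus strand) had 2.37, 1.71 and 2.37 CPM in β-alanine libraries and 2.92, 2.09 and 1.99 CPM in control libraries, with a log2 fold change of -0.12 ± 0.20 (SE, adjusted p = 0.706 in edgeR, interval -0.52 to 0.28). TWIST2 (chr2:238848085-238910534, plus strand) had 3.76, 4.16 and 3.60 CPM in β-alanine libraries and 4.27, 3.32 and 3.82 CPM in control libraries, with a log2 fold change of 0.02 ± 0.15 (adjusted p = 0.944 in edgeR, interval -0.28 to 0.31). Both are basic helix-loop-helix proteins that act as dimers with E proteins, and the groups overlapped for both. The sign of the difference of ZEB1, TWIST1 and TWIST2 depended on single libraries: without β-alanine library 1 or control library 2 ZEB1 was at -0.01 and -0.04, without β-alanine library 2 or control library 1 TWIST1 was at 0.03 and 0.06, and without β-alanine library 2 or control library 2 TWIST2 was at -0.05 and -0.08 on the log2 scale.

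**Figure D2:**
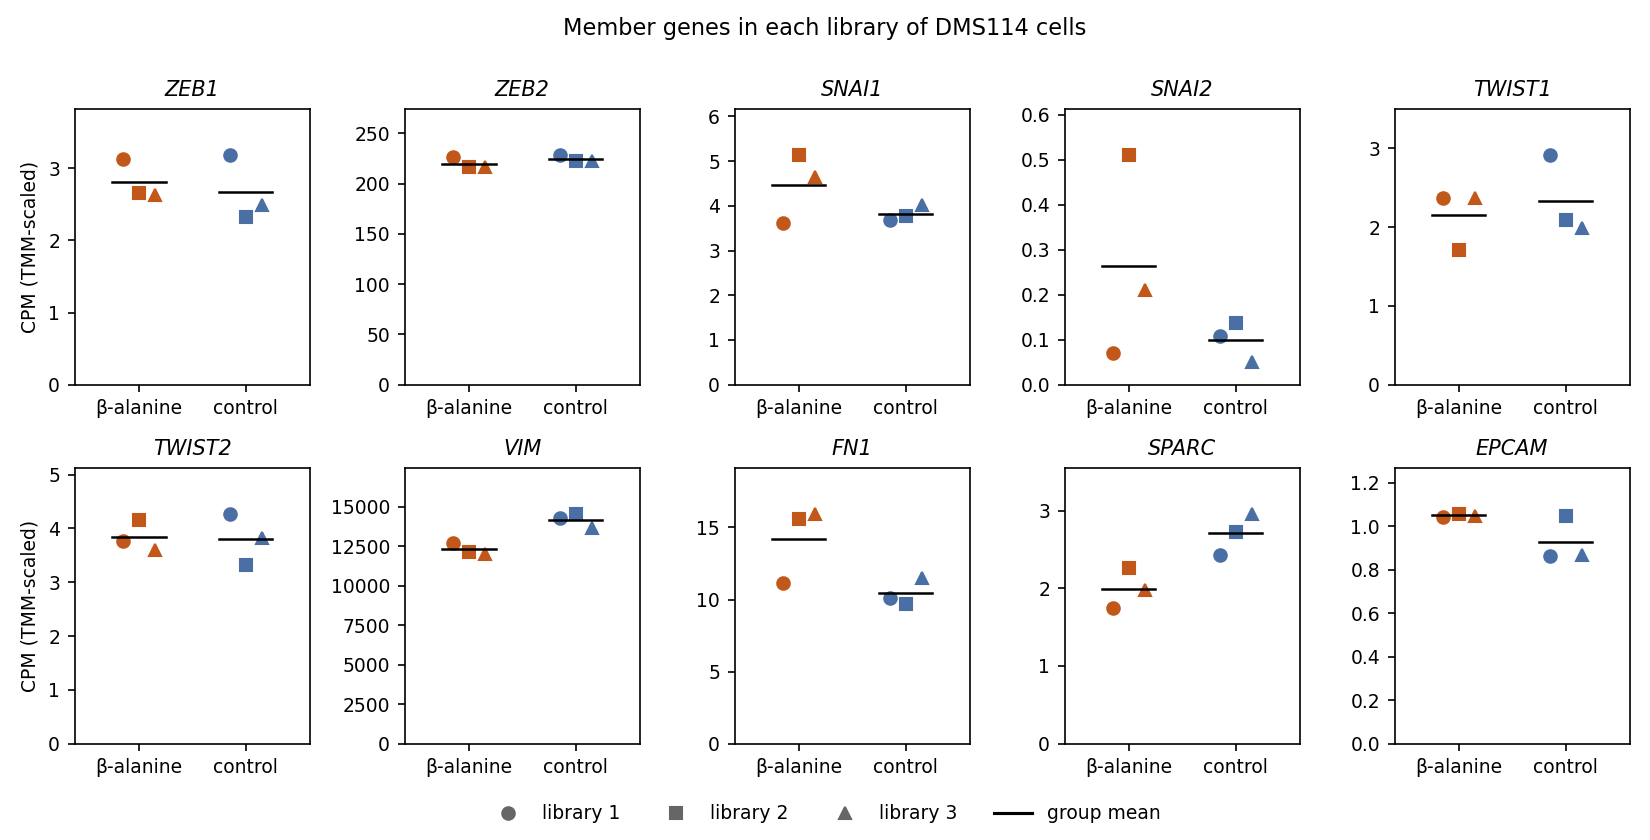
Each library's level of the members in CPM, with β-alanine left of control in each panel and a bar at each group's mean; every panel has its own axis. VIM and SPARC are the 2 tested members whose groups do not overlap, and β-alanine library 1 of FN1 lies within the control libraries.

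VIM was lower in β-alanine cells and FN1 was higher, and these were the 2 called of the 9 members tested, beside a background of 27.9% of all genes. VIM (chr10:17228241-17237593, plus strand) had 12713, 12149 and 12031 CPM in β-alanine libraries and 14303, 14541 and 13644 CPM in control libraries. Every β-alanine library lay below every control library, as was the case for 19.2% of all genes tested; for a further 19.9% every β-alanine library lay above. The means were 12298 ± 365 and 14163 ± 464 CPM (SD, n = 3 each), a decrease of 13.2%. VIM fell by 0.20 ± 0.04 on the log2 scale (SE, adjusted p = 0.00034 in edgeR). As a share of all counts, VIM made up 1.27%, 1.22% and 1.22% of the β-alanine libraries and 1.41%, 1.45% and 1.36% of the control libraries. In a bulk library, fewer cells with VIM message and less VIM message per cell cannot be told apart.

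FN1 (chr2:215360865-215436068, minus strand) had 11.1, 15.6 and 15.9 CPM in β-alanine libraries and 10.1, 9.69 and 11.5 CPM in control libraries. β-alanine libraries 2 and 3 lay above all control libraries, whereas β-alanine library 1 lay among them. That library stood apart on the second component and was the β-alanine library nearest to control libraries on the first. The means were 14.2 ± 2.67 and 10.4 ± 0.933 CPM (SD, n = 3 each), a fitted fold of 1.40 and a log2 fold change of 0.48 ± 0.12 (SE, adjusted p = 0.00403 in edgeR). The direction and the call of VIM and of FN1 were kept in each of the 14 alternative settings tried, those that left out each library included. Over fits that left out 1 library each, the FN1 difference was 0.39 to 0.59 on the log2 scale, highest without β-alanine library 1 and lowest without β-alanine library 3.

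SPARC (chr5:151661096-151686915, minus strand) had 1.74, 2.26 and 1.98 CPM in β-alanine libraries and 2.43, 2.73 and 2.96 CPM in control libraries. All β-alanine libraries were below all control libraries, and the means were 1.99 ± 0.261 and 2.71 ± 0.263 CPM (SD, n = 3 each). The difference did not pass the test over all genes (log2 fold change -0.42 ± 0.18, SE, adjusted p = 0.0921 in edgeR, unadjusted p = 0.0314), nor in any alternative setting. VIM and SPARC were thus the 2 of 9 tested members whose groups did not overlap, beside 39.1% of all genes. EPCAM (chr2:47369311-47387020, plus strand), the only epithelial product among the members, had 1.04, 1.06 and 1.05 CPM in β-alanine libraries and 0.865, 1.05 and 0.867 CPM in control libraries. One control library reached the β-alanine libraries, and the log2 fold change was 0.17 ± 0.26 (SE, adjusted p = 0.668 in edgeR, interval -0.34 to 0.69).

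**Figure D3:**
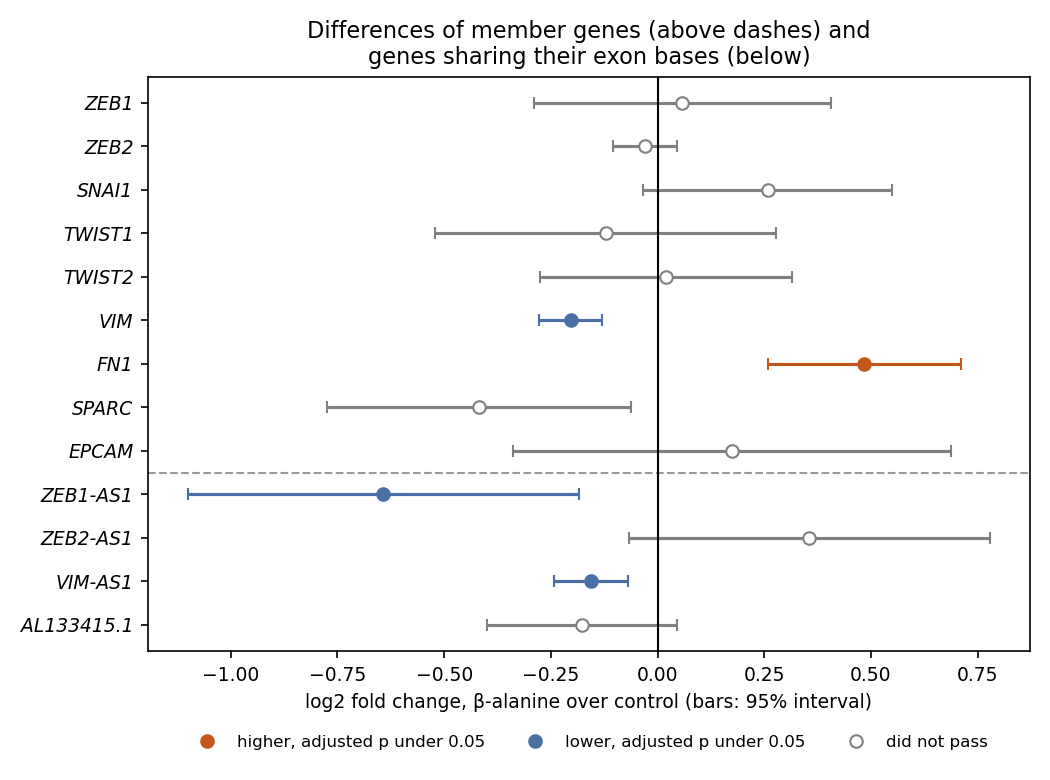
Log2 fold change of β-alanine over control for the tested members (above the dashes) and for counted genes that share their exon bases (below), with lines for the approximate 95% interval. VIM at -0.20 and FN1 at 0.48 are the members past the adjusted p of 0.05, and ZEB2 has the narrowest line of those not called.

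The core promoters of the 2 called members are shown here, and their part in the differences was not tested. Both are given from 250 bases before to 50 after the start site (RefSeq, GRCh38.p14, sense strand). That of FN1 is at chr2:215436019-215436318 on the minus strand, with the cyclic AMP response element TGACGTCA in capitals, 183 to 176 bases before the start; that of VIM is at chr10:17227991-17228290 on the plus strand.
FN1: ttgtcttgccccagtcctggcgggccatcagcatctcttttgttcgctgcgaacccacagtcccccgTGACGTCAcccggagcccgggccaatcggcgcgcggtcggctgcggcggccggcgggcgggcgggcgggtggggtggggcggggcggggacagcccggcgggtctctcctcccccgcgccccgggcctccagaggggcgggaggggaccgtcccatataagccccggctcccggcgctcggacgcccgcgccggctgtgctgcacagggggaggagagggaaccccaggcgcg
VIM: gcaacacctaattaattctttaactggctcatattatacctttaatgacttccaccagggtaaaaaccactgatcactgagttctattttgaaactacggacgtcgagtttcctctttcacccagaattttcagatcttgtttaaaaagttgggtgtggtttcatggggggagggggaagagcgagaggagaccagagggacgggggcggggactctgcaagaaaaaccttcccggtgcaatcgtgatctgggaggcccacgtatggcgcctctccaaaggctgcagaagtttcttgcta
The response element TGACGTCA, searched on both strands, was in 1.85% of 35116 promoters of this length, and the E-box CAGGTG that ZEB and Snail proteins bind was in 20.6%. The FN1 window holds no CAGGTG, and neither motif is in the VIM window. Promoters of 6 of the 10 members were used here, those of ZEB1, ZEB2, TWIST2, VIM, FN1 and SPARC. Promoters of the other members are not reported here. Among the 6 promoters used, CAGGTG was found only in ZEB1, at 2 of its 7 start sites, and TGACGTCA only in FN1. These are matches of letters and were not tested for binding.

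The exons of 5 members overlap those of another gene on the opposite strand, and whether counting used strand is not given in the sources used here, so reads over the shared bases could fall to either gene. VIM-AS1 shares 641 bases with VIM and had 230, 232 and 216 CPM in β-alanine libraries and 259, 262 and 234 CPM in control libraries. It fell by 0.16 ± 0.04 on the log2 scale (SE, adjusted p = 0.0108 in edgeR). Its counts were 1.81%, 1.91% and 1.80% of those of VIM in β-alanine libraries and 1.81%, 1.80% and 1.72% in control libraries. It no longer passed without β-alanine library 3 (edgeR adjusted p = 0.0656), control library 1 (0.0648) or control library 2 (0.0993). AL133415.1, which shares 619 bases with VIM, had a log2 fold change of -0.18 ± 0.11 (adjusted p = 0.306 in edgeR).

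ZEB1-AS1 shares 366 bases with ZEB1 and had 1.53, 1.35 and 0.929 CPM in β-alanine libraries and 2.05, 1.96 and 1.68 CPM in control libraries. It fell by 0.64 ± 0.23 on the log2 scale (SE, adjusted p = 0.0429 in edgeR), while ZEB1 itself was at 0.06 ± 0.18. That call was lost with DESeq2 (adjusted p = 0.139), without a filter on low counts (0.0571), and when β-alanine library 2 (0.0682), β-alanine library 3 (0.268), control library 1 (0.126), control library 2 (0.130) or control library 3 (0.0523) was left out. ZEB2-AS1, which shares 1299 bases with ZEB2, had 2.23, 2.22 and 1.68 CPM in β-alanine libraries and 1.30, 1.55 and 1.84 CPM in control libraries (log2 fold change 0.36 ± 0.22, adjusted p = 0.237 in edgeR). CLMAT3, which shares 381 bases with SPARC, had no count, and the partner of TWIST1 was not used here. No other gene's exons overlap those of SNAI1, SNAI2, TWIST2, FN1 or EPCAM in GENCODE 29. Genes of the lists below whose exons overlap those of an annotated gene, on either strand, are marked "shared exons". Their counts are uncertain to an unlike extent. The overlap of COL3A1 is 1 base on the same strand, and the overlapping genes of CDH1 and CDH2 were not among the genes counted.

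The cadherin pair that defines the transition was at a few counts per library on both sides. CDH1 (shared exons), the epithelial cadherin, had 3, 3 and 15 counts in β-alanine libraries and 6, 6 and 6 counts in control libraries, which is 0.279 CPM pooled (exact 95% interval 0.173 to 0.427) and 0.300 CPM (0.178 to 0.473), with a ratio of 0.933 (0.473 to 1.86). β-alanine library 3 held 15 of the 21 counts, and the ratio was 0.479 (0.156 to 1.26) without it and 1.26 (0.618 to 2.56) without β-alanine library 2. CDH2 (shared exons), the mesenchymal N-cadherin, had 2, 12 and 8 counts in β-alanine libraries and 7, 5 and 10 counts in control libraries, which is 0.293 and 0.366 CPM pooled, with a ratio of 0.800 (0.422 to 1.51). GRHL2 (shared exons), a factor that maintains epithelial identity, had no count in any library, where a floor of 3 counts over the pooled libraries is 0.0399 CPM in β-alanine cells and 0.0499 CPM in control cells.

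Of 44 listed mesenchymal effectors, 31 were tested, of which 7 rose and 15 fell in β-alanine cells. This is 71.0% called, beside 27.9% of all genes, with a list median of -0.12 on the log2 scale beside -0.0032 for all genes. The genes that fell included the fibrillar collagen COL3A1 and the matrix proteoglycan decorin. COL3A1 (shared exons) averaged 692 ± 50.1 CPM in β-alanine cells and 876 ± 23.5 CPM in control cells (SD, n = 3 each; log2 fold change -0.34 ± 0.04, adjusted p = 1.06e-05 in edgeR). DCN averaged 159 ± 6.82 and 191 ± 5.03 CPM, and the surface glycoprotein THY1 (shared exons) 38.7 ± 4.22 and 52.7 ± 0.730 CPM. FSTL1 (shared exons), a secreted glycoprotein of the SPARC family, averaged 1574 ± 133 and 2001 ± 43.2 CPM (log2 fold change -0.35 ± 0.05, adjusted p = 4.51e-05 in edgeR).

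The mesenchymal effectors that rose were led by the matricellular proteins CCN1 and CCN2. CCN1 had 20.0, 29.6 and 28.3 CPM in β-alanine libraries and 11.7, 11.3 and 10.9 CPM in control libraries (log2 fold change 1.23 ± 0.12, SE, adjusted p = 1.67e-05 in edgeR). CCN2 (shared exons) averaged 5.26 ± 0.717 CPM in β-alanine cells and 2.44 ± 0.706 CPM in control cells (SD, n = 3 each), and thrombospondin 1, THBS1 (shared exons), averaged 8.25 ± 1.24 and 5.08 ± 0.448 CPM. The tropomyosin TPM2 rose by 0.16 ± 0.04 on the log2 scale, but not when β-alanine library 2 was left out (edgeR adjusted p = 0.111). Without β-alanine library 3 or without control library 2, 14 of the list were called.

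Among the fibroblast markers tested only PDGFRB had a positive log2 fold change. All of the fibroblast markers listed are also among the mesenchymal effectors counted above. Of 9 listed, 7 were tested, of which 1 rose and 4 fell, 71.4% beside 27.9% of all genes. Their median was -0.27 on the log2 scale beside -0.0032 for all genes, and their summed level was 946 to 1054 CPM in β-alanine libraries and 1196 to 1239 CPM in control libraries. Without control library 2 or 3, 3 of them were called. COL3A1, which made up most of the summed level, DCN and THY1 above are 3 of the 4 that fell. PDGFRB rose by 0.19 ± 0.07 on the log2 scale (SE, adjusted p = 0.0482 in edgeR). That call was lost with DESeq2 (adjusted p = 0.0997), limma (0.0537), a filter of 1 CPM in 3 libraries (edgeR, 0.0537) and no robust shrinkage (edgeR, 0.0514). In edgeR it was also lost without β-alanine library 3 (0.255), control library 1 (0.118), control library 2 (0.0835) or control library 3 (0.165). PDGFRA (shared exons) and LUM were tested and not called. FAP (shared exons) was at 0 in 5 of the 6 libraries. COL1A2 had 2, 1 and 5 counts in β-alanine libraries and 3, 0 and 0 counts in control libraries. The part of fibroblast markers in the VIM difference was not tested.

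Among 42 listed epithelial effectors 25 were tested, and 5 rose and 3 fell, 32.0% beside 27.9% of all genes. KRT18 (shared exons), a keratin of simple epithelia, averaged 11.9 ± 1.36 CPM in β-alanine cells and 8.11 ± 0.652 CPM in control cells (SD, n = 3 each; log2 fold change 0.58 ± 0.11, adjusted p = 0.000323 in edgeR). Its partner KRT8 (shared exons) had 2, 8 and 9 counts in β-alanine libraries and 2, 5 and 4 counts in control libraries. SPINT1 (shared exons), an inhibitor of surface serine proteases, averaged 4.87 ± 0.951 and 2.45 ± 0.700 CPM. Among those that fell, the receptor ERBB3 (shared exons) averaged 13.3 ± 1.73 and 20.7 ± 1.12 CPM and the junction protein plakoglobin, JUP, 29.9 ± 2.29 and 39.7 ± 1.27 CPM. CD24, the list's highest gene, averaged 354 ± 17.3 and 378 ± 9.41 CPM and did not pass the test (adjusted p = 0.0802 in edgeR), but passed without β-alanine library 1 (0.00143) and with a replicate block (0.0476).

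Of 18 listed regulators of the epithelial state 7 were tested, of which 2 rose and none fell, 28.6% beside 27.9% of all genes. KLF5, a zinc-finger factor of epithelial cells, had 2.02, 2.01 and 2.16 CPM in β-alanine libraries and 1.14, 1.50 and 0.765 CPM in control libraries (log2 fold change 0.85 ± 0.24, SE, adjusted p = 0.00917 in edgeR), and its call was lost without control library 3 (adjusted p = 0.0676 in edgeR). ESRP1, an epithelial splicing factor, had 4, 6 and 18 counts in β-alanine libraries and 6, 6 and 10 counts in control libraries, and OVOL2 (shared exons), a repressor of ZEB1, had 0, 1 and 1 counts and 0, 0 and 0 counts.

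**Figure D4:**
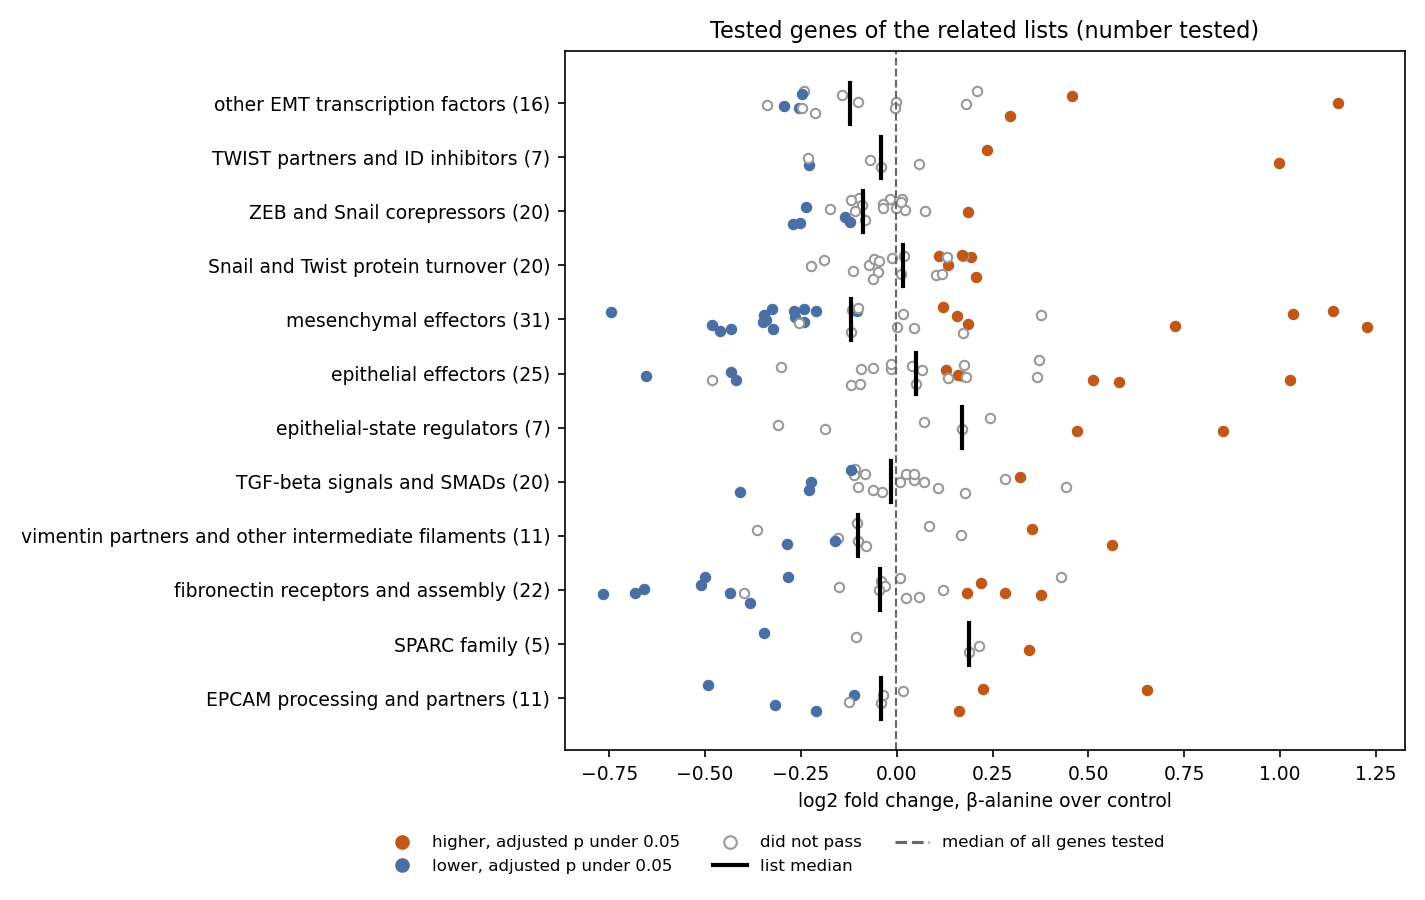
Log2 fold change of β-alanine over control for every tested gene of the related lists that had at least 5 tested genes, with called genes in colour and the list's median as a bar. The median of the mesenchymal effectors is -0.12 and that of the epithelial effectors 0.05, and each list holds genes on both sides of 0.

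Of 19 other transcription factors known to drive the transition, 16 were tested, of which 3 rose and 3 fell, 37.5% beside 27.9% of all genes. SOX9, a factor of progenitor and cartilage cells, averaged 165 ± 5.44 CPM in β-alanine cells and 135 ± 8.42 CPM in control cells (SD, n = 3 each; log2 fold change 0.30 ± 0.05, adjusted p = 6.07e-05 in edgeR). The homeobox factor PRRX1 averaged 2.02 ± 0.545 and 0.961 ± 0.210 CPM (log2 fold change 1.15 ± 0.25, adjusted p = 0.00157 in edgeR). ETS1 rose by 0.46 ± 0.11 on the log2 scale. FOXM1 (shared exons), a factor of dividing cells, averaged 75.8 ± 6.67 and 89.9 ± 1.55 CPM. The list of Snail relatives held 4 genes, among them SNAI3-AS1 (shared exons), which is an antisense gene and not a family member. SNAI3-AS1 and SCRT1 were the 2 tested, and 1 was called, 50% beside 27.9% of all genes. SCRT1, a neuronal repressor of the Snail family, rose, at 7.11 ± 0.432 CPM in β-alanine cells and 4.21 ± 0.607 CPM in control cells (log2 fold change 0.76 ± 0.13, adjusted p = 0.000202 in edgeR).

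The dimer partners of TWIST proteins and the ID inhibitors, which sequester E proteins, had 7 of 9 genes tested, of which 2 rose and 1 fell, 42.9% beside 27.9% of all genes. ID3 had 7.94, 8.86 and 7.88 CPM in β-alanine libraries and 3.24, 4.78 and 4.28 CPM in control libraries, with no overlap (log2 fold change 1.00 ± 0.14, SE, adjusted p = 1.38e-05 in edgeR). HAND2 (shared exons), a helix-loop-helix factor of neural crest and heart, averaged 71.4 ± 3.01 CPM in β-alanine cells and 83.4 ± 3.10 CPM in control cells (SD, n = 3 each). The E protein gene TCF3 averaged 212 ± 15.8 and 218 ± 3.63 CPM and did not pass the test (adjusted p = 0.546 in edgeR), though it did without β-alanine library 1 (0.0242), where 5 of the list were called.

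All 20 corepressors and cofactors of ZEB and Snail proteins were tested, of which 1 rose and 5 fell, 30.0% beside 27.9% of all genes. The deacetylase SIRT1 averaged 88.7 ± 2.77 CPM in β-alanine cells and 78.1 ± 3.02 CPM in control cells (SD, n = 3 each). The LIM protein WTIP averaged 50.2 ± 1.89 and 60.4 ± 0.913 CPM and the lysyl oxidase-like enzyme LOXL2 (shared exons) 47.8 ± 1.98 and 56.8 ± 3.86 CPM. Without β-alanine library 1, 10 of the list were called, and without β-alanine library 2, 3 were. Of 20 genes for the turnover of Snail and Twist proteins, all were tested, and 5 rose and none fell, 25% beside 27.9% of all genes. The signalosome subunit COPS2 (shared exons) averaged 194 ± 6.14 and 168 ± 5.16 CPM and the ubiquitin ligase subunit FBXO45 (shared exons) 64.4 ± 1.74 and 56.3 ± 0.449 CPM. Only 2 of this list were called without control library 1, and 3 were called when any other library but β-alanine library 1 was left out. The amounts of the SNAI1 and TWIST1 proteins were not measured.

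Of 20 genes of TGF-beta signalling, an inducer of the transition, all were tested, of which 1 rose and 4 fell, 25% beside 27.9% of all genes. SKIL, an inhibitor of SMAD proteins that TGF-beta itself induces, averaged 42.2 ± 4.64 CPM in β-alanine cells and 34.1 ± 1.18 CPM in control cells (SD, n = 3 each; log2 fold change 0.32 ± 0.07, adjusted p = 0.00137 in edgeR). LTBP3, which binds latent TGF-beta, averaged 72.7 ± 7.07 and 84.5 ± 3.44 CPM, a call lost without control library 2 (adjusted p = 0.0527 in edgeR). Without β-alanine library 3, control library 2 or control library 3, 2 of the list were called, and 3 without β-alanine library 2 or control library 1.

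Other intermediate filament genes and vimentin partners did not share one direction: of 11 tested among 14 listed, 2 rose and 2 fell, 36.4% beside 27.9% of all genes. INA, a neuronal filament protein, had 133, 135 and 126 CPM in β-alanine libraries and 108, 100 and 101 CPM in control libraries (log2 fold change 0.35 ± 0.05, SE, adjusted p = 7.32e-06 in edgeR), opposite in sign to VIM. The cytolinker PLEC averaged 334 ± 9.96 CPM in β-alanine cells and 374 ± 19.1 CPM in control cells (SD, n = 3 each), and it no longer passed without β-alanine library 2 (edgeR adjusted p = 0.0514) or control library 2 (0.0665). The count of calls in this list was 7 without β-alanine library 1, 2 without β-alanine library 2 or 3, and 1 without control library 2.

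Around FN1, 22 of 24 genes for fibronectin receptors and assembly were tested, of which 4 rose and 8 fell, 54.5% beside 27.9% of all genes. Both chains of the classical fibronectin receptor rose. ITGB1 (shared exons) averaged 446 ± 11.5 CPM in β-alanine cells and 393 ± 9.46 CPM in control cells, and ITGA5 (shared exons) 41.4 ± 4.69 and 34.4 ± 1.23 CPM (SD, n = 3 each; log2 fold change 0.28 ± 0.07, adjusted p = 0.0044 in edgeR). Vinculin, VCL (shared exons), averaged 788 ± 35.4 and 677 ± 4.96 CPM. The genes that fell included the heparan sulfate proteoglycan SDC1 with 82.8 ± 7.01 and 117 ± 6.48 CPM (log2 fold change -0.51 ± 0.06, adjusted p = 2.44e-06 in edgeR), the adaptor ILK (shared exons) with 35.9 ± 0.899 and 48.4 ± 2.00 CPM, and fibulin 1, FBLN1, with 61.2 ± 6.25 and 79.1 ± 1.26 CPM. TNS3, a tensin of adhesion sites, fell by 0.68 ± 0.10 on the log2 scale.

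In the SPARC family 5 of 7 genes were tested, of which FSTL1 fell and SMOC1 rose, 40.0% beside 27.9% of all genes. SMOC1, a secreted calcium-binding protein, averaged 12.0 ± 1.58 CPM in β-alanine cells and 9.60 ± 0.326 CPM in control cells (SD, n = 3 each; log2 fold change 0.34 ± 0.10, adjusted p = 0.0149 in edgeR). It no longer passed without β-alanine library 2 (edgeR adjusted p = 0.123), β-alanine library 3 (0.0629), control library 2 (0.0569) or control library 3 (0.0675). Of 16 partners and processing enzymes of EPCAM, 11 were tested, of which 3 rose and 4 fell, 63.6% beside 27.9% of all genes. Over fits without 1 library each, 5 to 7 of this list were called. Of the genes that fell, CD44 is also among the mesenchymal effectors counted above. FHL2 (shared exons), which binds the released intracellular part of EPCAM, averaged 4.09 ± 0.231 CPM in β-alanine cells and 2.62 ± 0.140 CPM in control cells. The protease BACE1 (shared exons) averaged 19.4 ± 2.53 and 26.8 ± 0.197 CPM and the hyaluronan receptor CD44 (shared exons) 251 ± 4.92 and 290 ± 17.9 CPM. The binding partner CLDN7 (shared exons) had 1, 0 and 2 counts in β-alanine libraries and 0, 0 and 0 counts in control libraries.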

How the data were processed

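Values are raw counts per gene symbol in 1 table that the authors deposited for 6 poly(A) RNA-seq libraries. The submitters' processing notes name bcl2fastq, Trimmomatic 0.39, STAR 2.7.3a, featureCounts 2.0.1, DESeq2 and GRCh38. Neither the annotation nor any use of strand in counting was found there. Libraries were grouped by their labels.

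Genes were filtered with filterByExpr, scaled with TMM and tested with edgeR 4.0.16 (quasi-likelihood, robust, Benjamini-Hochberg over all genes tested, threshold 0.05) in R 4.3.3. DESeq2 1.42.0 and limma 3.58.1 were alternatives, beside other scalings, filters and libraries left out. CPM are TMM-scaled. RPKM used merged exon lengths from GENCODE 29. Intervals of log2 fold changes are 1.96 SE to either side, and floors rest on 3 counts. The test was tested on simulated data. The biological coefficient of variation was 4.35%. The correlation of deviations between libraries of the same number was 0.065, 0.0024 and 0.105, against -0.097 to 0.012 between libraries of unlike number. Each same-number value was the highest for its control library. The main fit took no pairs, and a fit with a replicate block is given below. Whether libraries of the same number were handled together was not tested.

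All 10 members and CDH1 and CDH2 were named; of each list, genes were taken from up to 4 called per direction by smallest p, and the highest by mean CPM; a few genes of these lists are not reported here. Members and lists were chosen with earlier results of these data known, so list counts are descriptions. No molecular identifiers are named in the labels. The exact intervals of pooled levels and ratios cover counting error only, while those of log2 fold changes rest on the fitted SE.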

Additional observations from a re-analysis of the deposited data

How the results depend on the processing

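VIM, FN1 and the count of 2 called members kept their direction and call in each alternative, with adjusted p of 4.09e-08 to 0.0113 for VIM and 9.97e-07 to 0.0445 for FN1. SPARC was called in none (0.0779 to 0.244). With a replicate block the calls were 2564 higher and 2608 lower, and VIM was at -0.20 (adjusted p = 1.17e-05), FN1 at 0.46 (0.000912) and SPARC at -0.44 (0.0779); the libraries share only a number. At an adjusted p under 0.01, 1454 genes were higher and 1391 lower. The turnover list had 3 calls under the filter of 1 CPM, DESeq2 and no robust shrinkage, and the TGF-beta list 3 under library totals and DESeq2. Over fits without 1 library each, calls ranged over 1501 to 3204 genes higher and 1473 to 3294 lower, lowest without β-alanine library 2 and next without control library 2 (1570 and 1488). List calls ranged over 14 to 23 (mesenchymal effectors), 3 to 10 (corepressors), 2 to 7 (turnover), 2 to 5 (TGF-beta), 2 to 5 (TWIST partners), 1 to 7 (intermediate filaments), 1 to 2 (SPARC family), 1 to 2 (epithelial regulators) and 3 to 6 (fibroblast markers). Log2 fold changes that changed sign ranged over -0.0398 to 0.199 for ZEB1, -0.241 to 0.0607 for TWIST1, -0.0765 to 0.107 for TWIST2, -0.0027 to 0.0325 for HDAC2 (shared exons) and -0.10 to 0.0055 for TCF3; none of these was called in the fit to all libraries. Of 71 called genes named by the rule from the lists and antisense genes, 43 kept the call in every setting and 28 lost it in at least 1. With the longest transcript, control levels were 0.426 (ZEB1), 23.4 (ZEB2), 1.40 (TWIST1), 2.71 (TWIST2), 5312 (VIM), 1.14 (FN1), 0.731 (SPARC) and 0.537 RPKM (EPCAM), since that length is shorter. The causes of the other shifts were not tested. Depth limits SNAI2, CDH1, CDH2 and, by their wide intervals, EPCAM, ZEB1 and TWIST1. The pooled ratios of SNAI2, CDH1 and CDH2 without single libraries were added after seeing the data.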
